A study of Danio rerio with 4 samples.

Results

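The genes described here encode small, quickly induced proteins of the stress and immediate early response. They are the Ier genes *ier2a*, *ier2b*, IER5 and IER5L, the Gadd45 genes GADD45A, GADD45G and 1 copy of GADD45B, and ATF3. They were taken by Ensembl ID or by symbol, and the symbol table often uses the capital human symbol for a zebrafish gene, without a paralogue letter. The 10 listed names therefore matched 11 of the 31901 gene IDs counted, with 2 IDs for GADD45A and 3 for GADD45G, and the sources used here do not say which ID is which paralogue. The genes were chosen by family and by their log2 fold change and adjusted p between the genotypes, so those values below are a description and support nothing by themselves.

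Immediate early genes are transcribed within minutes of a growth factor, injury or stress signal, without new protein synthesis, and their messages decay fast. In mammals, IER2, IER5 and IER5L share an N-terminal domain and bind the phosphatase PP2A through its B55 subunits, and IER5 also activates the heat shock factor HSF1. GADD45 proteins are small acidic proteins that bind and activate the kinase MAP3K4 upstream of p38 and JNK, and that also bind PCNA, the inhibitor p21 and the mitotic kinase CDK1. ATF3 is a bZIP transcription factor of the ATF/CREB family that is induced by wounding and by the integrated stress response, and it pairs with Jun proteins and other bZIP factors.

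RNA was sequenced from the tip of the tail fin of adult zebrafish (*Danio rerio*), regrown for 96 hours after it was cut. The 2 genotypes were longfin heterozygous, with a single copy of an allele under which fins overgrow, and homozygous wildtype fish of the same clutches. All fish carried the osteoblast reporter sp7:eGFP, and the tissue lay beyond the labelled osteoblasts and showed no GFP. Each of the 2 libraries per genotype held the tissue of 4 fins, and no source ties the pools of a genotype to separate clutches or days, and the spread and p-values given here are those between these pools.

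The libraries held 19428186 to 23157979 reads in genes. As a check of the labels, KCNH2 (ENSDARG00000029881), a channel gene of the family named in the study's title, had 7 and 21 reads in longfin and 0 and 1 in wildtype libraries. The second ID with that symbol, ENSDARG00000106473, had 1 and 3 against 4 and 1 reads, and the table does not say which ID is *kcnh2a*. Blastema markers (*msx1a*, *msx1b*, TNC, FN1 and others) summed to 8119 to 10562 CPM per library, CPM being the read count scaled to library size with TMM factors. FN1 (ENSDARG00000006526) held most of this sum, at 4712 to 6515 CPM, and *msx1a* lay at 5.75 to 11.8 CPM. Actinotrichia markers such as *and1* summed to 11885 to 16134 CPM. The osteoblast factor gene SP7 was not absent from the GFP-negative tissue, at 45.4 to 57.4 CPM. The matched osteoblast markers, SP7 among them, summed to 2148 to 3093 CPM per library. COL10A1 (ENSDARG00000054753) held most of this sum, at 1873 to 2690 CPM. Of these markers, *bglap* alone had 0 reads in every library.

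The *ier2* copies had the largest genotype differences of the genes described. *ier2a* (ENSDARG00000099195) had 3125 reads in longfin heterozygous replicate 1 and 2336 in replicate 2, and 805 and 863 in the corresponding wildtype libraries. As CPM these were 140.5 and 120.0 against 43.5 and 36.0. Both longfin libraries lay far above both wildtype libraries. The nearest libraries of the 2 genotypes were 1.46 apart on the log2 scale. This compares with 0.23 between the longfin libraries and 0.27 between the wildtype libraries. The log2 fold change, longfin heterozygous over wildtype, was 1.72 ± 0.13 (SE) in edgeR's quasi-likelihood fit, a fold of 3.28.

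*ier2b* (ENSDARG00000086881) had 3613 and 2232 reads in longfin libraries against 855 and 878 in wildtype libraries. In CPM these were 162 and 115 against 46.2 and 36.6. The groups again did not overlap, but the longfin libraries were farther apart than for *ier2a*, by 0.50 on the log2 scale, with replicate 1 the higher. The log2 fold change was 1.75 ± 0.20 (SE), close to that of *ier2a* but with the larger error.

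The balance between the *ier2* copies was much the same in all libraries. Both copies were chosen on the same contrast, so this likeness partly restates that choice and is given as a description. *ier2a* made up 46.4% of the reads of both copies in longfin heterozygous replicate 1 (95% Wilson interval 45.2 to 47.6) and 51.1% in replicate 2 (49.7 to 52.6). In the wildtype libraries it made up 48.5% (46.1 to 50.9) and 49.6% (47.2 to 51.9). These intervals cover counting error only. The share differed more between the longfin libraries than between the genotypes, and it needs no scaling of the libraries. Together the copies reached 269 ± 48.3 CPM (SD, n = 2) in longfin tips, against 81.1 ± 12.1 CPM in wildtype tips.

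IER5 and IER5L, the other Ier genes, differed less. IER5 (ENSDARG00000009881) had 211 and 188 CPM in the longfin libraries and 178 and 139 CPM in the wildtype libraries. The genotypes did not overlap, but the gap between the nearest libraries, 0.08 on the log2 scale, was smaller than the 0.36 between the wildtype libraries. Its log2 fold change was 0.33 ± 0.13 (SE).

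IER5L (ENSDARG00000054906) had 90.9 and 96.3 CPM in longfin against 58.8 and 78.7 CPM in wildtype tips. Here too the gap of 0.21 was below the 0.42 between the wildtype libraries, wildtype replicate 1 being the lowest, and the log2 fold change was 0.44 ± 0.14 (SE). Among the Ier genes the log2 fold changes of the *ier2* copies were thus more than 1 unit above those of IER5 and IER5L, a difference that was not tested because it rests on the contrast used for the choice.

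**Figure D1:**
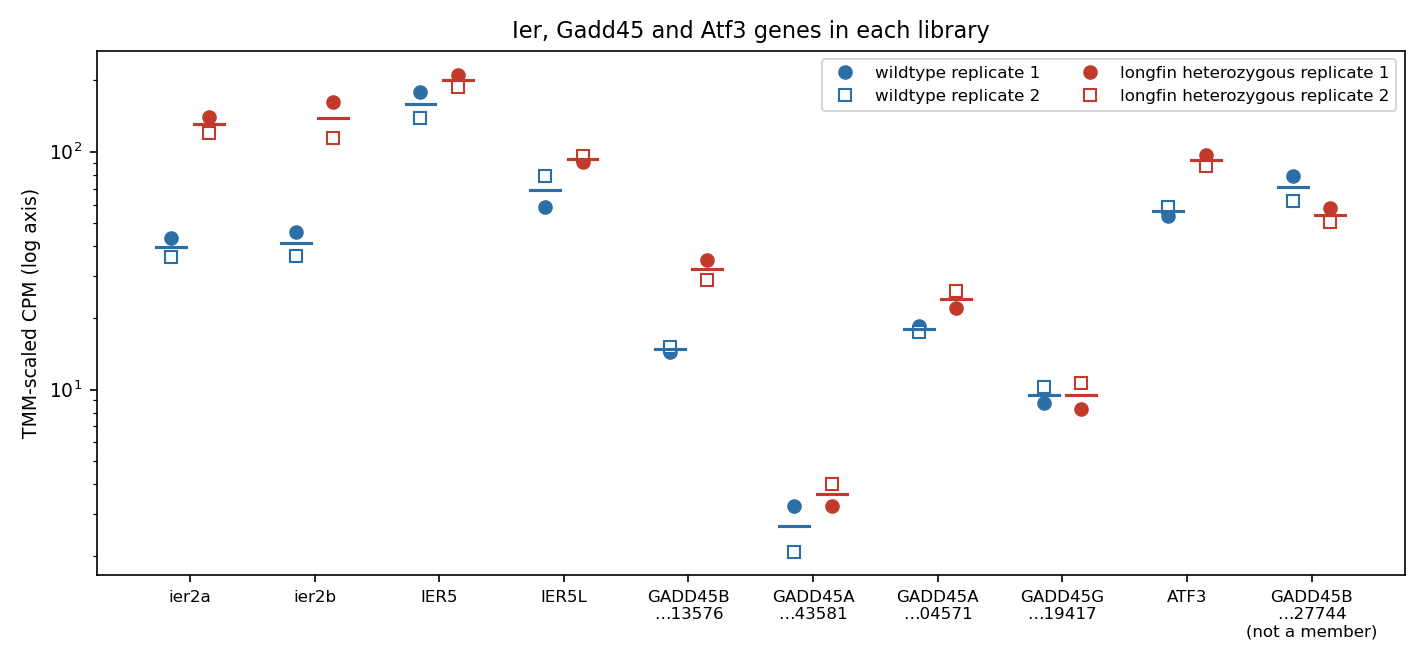
TMM-scaled CPM on a log axis for the 9 tested genes and for the GADD45B copy that is not among them; filled circles are replicate 1, open squares replicate 2 and short bars the mean of the 2 libraries of a genotype. The longfin libraries lie well above the wildtype libraries for *ier2a*, *ier2b*, GADD45B (ENSDARG00000013576) and ATF3, and the GADD45B copy at the right is ordered the other way.

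Of the Gadd45 genes, the listed copy of GADD45B had the largest log2 fold change. GADD45B (ENSDARG00000013576) had 779 and 565 reads in longfin libraries against 267 and 363 in wildtype libraries, which is 35.0 and 29.0 CPM against 14.4 and 15.1 CPM. The genotypes stood 0.94 apart at their nearest libraries on the log2 scale, with 0.27 between the longfin and 0.07 between the wildtype libraries. The log2 fold change was 1.12 ± 0.13 (SE).

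The other ID with the symbol GADD45B, ENSDARG00000027744, is not among the listed genes and was set beside the first because the copies share a symbol. It had 1294 and 987 reads in longfin and 1471 and 1488 reads in wildtype libraries, or 58.2 and 50.7 against 79.4 and 62.1 CPM. Its longfin libraries were both below its wildtype libraries, by 0.09 on the log2 scale at the nearest. That gap was smaller than the 0.20 between the longfin and the 0.36 between the wildtype libraries. Of all genes tested, 19.8% were likewise lower in longfin without overlap. The log2 fold change of this copy was -0.38 ± 0.14 (SE) (adjusted p = 0.460 in edgeR).

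The share of the first copy in the reads of both was also read per library. It restates the contrast on which that copy was chosen, and it is given as a description. ENSDARG00000013576 took 37.6% (95% Wilson interval 35.5 to 39.7) and 36.4% (34.0 to 38.8) of the reads of both copies in the longfin libraries. In the wildtype libraries it took 15.4% (13.7 to 17.1) and 19.6% (17.9 to 21.5). These intervals too cover counting error only. Added together the copies reached 86.5 ± 9.55 CPM (SD, n = 2) in longfin tips, against 85.5 ± 11.8 CPM in wildtype tips, a ratio of 1.01. Reads that were not uniquely aligned, 28.7 to 41.9% of each library, were counted in a class of their own, apart from the gene counts. How many of them fit both copies is not given in the sources used here.

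**Figure D2:**
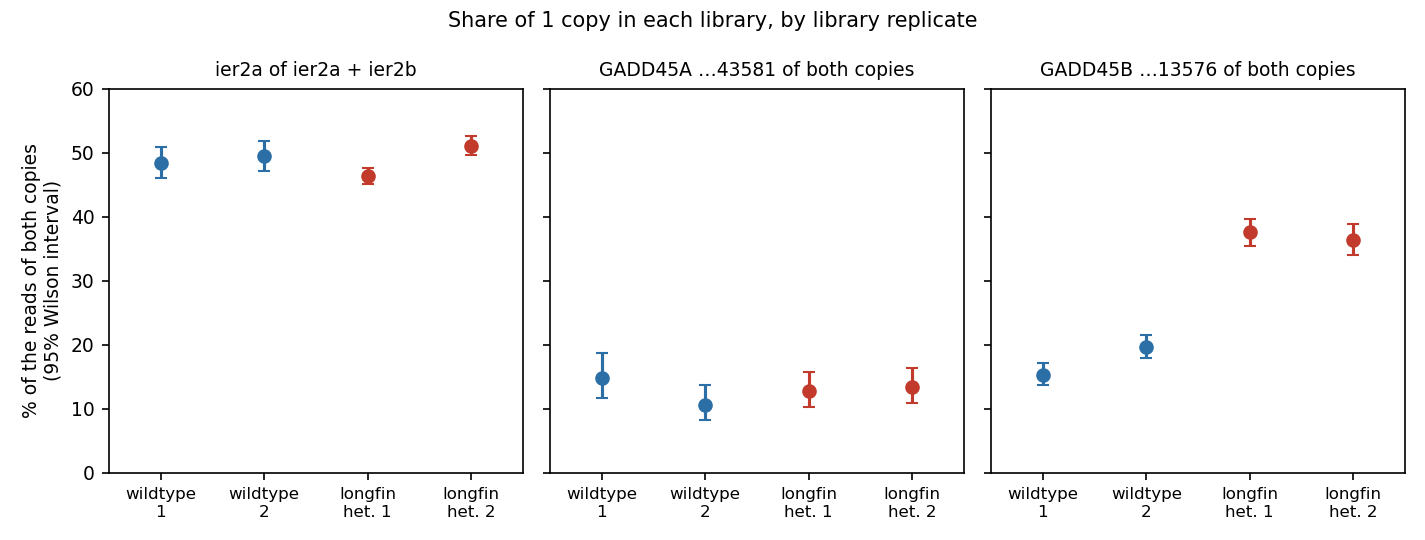
Share of 1 copy in the reads of a pair of copies, in percent, for each library, with 95% Wilson intervals as bars. The share of *ier2a* stays between 46.4 and 51.1% and that of GADD45A ENSDARG00000043581 between 10.7 and 14.9%, while that of GADD45B ENSDARG00000013576 is 15.4 and 19.6% in wildtype and 37.6 and 36.4% in longfin libraries.

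GADD45A, which in mammals is a classical target of p53, was represented by an ID with many reads and one with few. ENSDARG00000104571 had 492 and 504 reads in longfin and 343 and 419 reads in wildtype libraries, or 22.1 and 25.9 against 18.5 and 17.5 CPM. The genotypes did not overlap, with a gap of 0.26 on the log2 scale, slightly more than the 0.23 between the longfin libraries, and the log2 fold change was 0.42 ± 0.13 (SE). ENSDARG00000043581 had 72 and 78 reads in longfin and 60 and 50 reads in wildtype libraries. Its CPM of 3.24 in longfin heterozygous replicate 1 and 3.24 in wildtype replicate 1 met, so the genotypes overlapped, and the log2 fold change of 0.46 had an SE of 0.29. ENSDARG00000043581 made up 10.7 to 14.9% of GADD45A reads in the 4 libraries, with intervals that overlapped between all of them.

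GADD45G, which encodes the family member linked in vertebrate embryos to cell cycle exit, had nearly all its reads on 1 of its 3 IDs. ENSDARG00000019417 had 8.27 and 10.6 CPM in longfin and 8.75 and 10.3 CPM in wildtype tips. The genotypes overlapped, and the log2 fold change was -0.02 ± 0.18 (SE). The IDs ENSDARG00000016725 and ENSDARG00000113103 were below the count filter of the fit. The first had 1 and 3 reads in the longfin and 0 and 7 reads in the wildtype libraries. Summed per genotype its ratio was 0.582, with an exact 95% interval of 0.125 to 2.29. The second had 2 and 3 against 2 and 13 reads, a ratio of 0.340 (0.0966 to 0.983). These intervals cover counting error only, and 13 of the 15 wildtype reads of the second came from wildtype replicate 2.

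ATF3 (ENSDARG00000007823) had 2154 and 1703 reads in longfin libraries against 997 and 1409 in wildtype libraries. As CPM these were 96.9 and 87.5 against 53.8 and 58.8. The groups did not overlap, and the gap of 0.57 on the log2 scale was larger than the 0.15 between the longfin and 0.13 between the wildtype libraries. The log2 fold change was 0.71 ± 0.10 (SE), the smallest of the genes that passed the threshold.

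**Figure D3:**
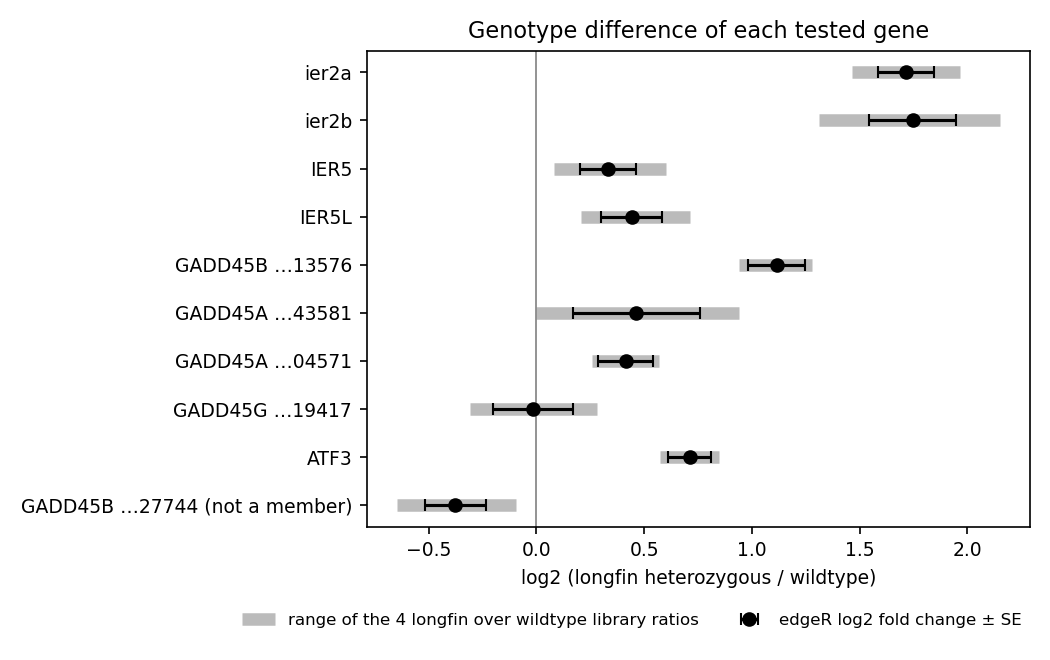
Log2 fold change of longfin heterozygous over wildtype for each tested gene (points, edgeR, with SE as bars) and the range of the 4 ratios between a longfin and a wildtype library (grey). The *ier2* copies lie at 1.72 and 1.75, GADD45B (ENSDARG00000013576) at 1.12 and ATF3 at 0.71, while IER5, IER5L and the GADD45A IDs lie between 0.33 and 0.46.

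Of the 11 IDs, 9 passed the filter on low counts, and 4 of these 9 were higher in longfin tips at an adjusted p under 0.05 in edgeR's quasi-likelihood test with Benjamini-Hochberg adjustment over 18366 genes. The background was 0.109% of genes called higher and 0.294% called lower. These 4 calls are what led to the choice of the genes, so nothing is read from their number. The adjusted p was 0.00586 for *ier2a*, 0.0321 for GADD45B (ENSDARG00000013576), 0.0478 for *ier2b* and 0.0482 for ATF3, so the last 2 stood just inside the threshold. The nearest outside it were GADD45A (ENSDARG00000104571) at 0.366, IER5L at 0.392 and IER5 at 0.493. None of the 9 was called lower. The longfin libraries were both above the wildtype libraries for 7 of the 9 and below them for 0, where 20% and 19.8% of all genes tested did so, and the 2 that overlapped were GADD45A (ENSDARG00000043581) and GADD45G (ENSDARG00000019417).

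Each library was also left out in turn, which leaves a genotype with a single library that is assumed to vary like those of the other. Without longfin heterozygous replicate 1 or without longfin heterozygous replicate 2, edgeR called 0 genes higher over all genes, and so none of these. Of these genes, *ier2a* alone passed without wildtype replicate 1, and *ier2a*, GADD45B (ENSDARG00000013576) and ATF3 passed without wildtype replicate 2. With 1 library left out, the log2 fold change lay between 1.58 and 1.86 for *ier2a* and 1.47 and 1.98 for *ier2b*. It lay between 0.97 and 1.25 for GADD45B (ENSDARG00000013576) and 0.64 and 0.78 for ATF3. For IER5 it lay between 0.17 and 0.52 and for IER5L between 0.25 and 0.67. For GADD45A it lay between 0.30 and 0.53 (ENSDARG00000104571) and between 0.16 and 0.79 (ENSDARG00000043581), and for the GADD45B copy ENSDARG00000027744 between -0.54 and -0.19. With the replicate number as a block IER5 and IER5L also passed, at adjusted p-values of 0.0142 and 0.0132 in edgeR. So did the GADD45B copy ENSDARG00000027744 as lower, at 0.0193. Over all genes the block gave 245 calls higher and 549 lower, against 20 and 54 without it.

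**Figure D4:**
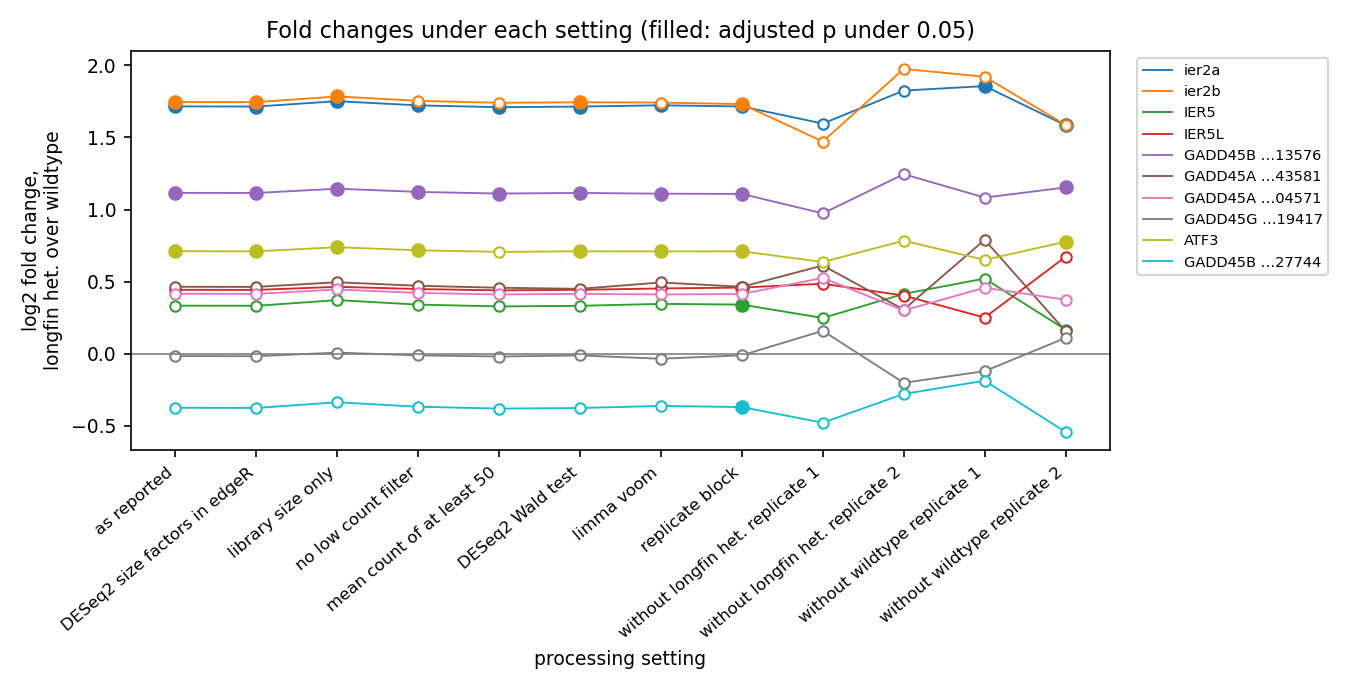
Log2 fold change of each tested gene (longfin heterozygous over wildtype) as reported and under 11 other settings; thin lines join the values of a gene and filled points have an adjusted p under 0.05. The order of *ier2a* and *ier2b* above GADD45B (ENSDARG00000013576) above ATF3 is the same in each setting, and without either longfin library there is no filled point, where edgeR called 0 genes higher over all genes.

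In bulk tissue, fewer cells of a type and less RNA per cell cannot be told apart, so marker genes of the cell types were read beside these differences. The 7 superficial epidermis markers, among them *krt4*, PPL and *krt91*, summed to 8093 and 8730 CPM in the longfin and 10139 and 10801 CPM in the wildtype libraries. Of these 7 genes 0 passed edgeR's adjusted threshold, and limma voom called 0. At an unadjusted p under 0.05 in edgeR, 4 were lower and 0 higher, where 5.82% of all genes were lower and 3.66% higher. These 4 were PPL, *evpla*, *krt91* and *krt17*. Not among them were *krt4*, *krt92* and *cldne*, at log2 fold changes of -0.22, -0.09 and 0.09. The genotypes overlapped for *krt92*, which was below 1 CPM, and for *cldne*. DESeq2 called 1 as lower, PPL, against 1.17% of all genes. The 3 actinotrichia markers matched summed to 16134 and 14306 CPM in longfin and 13058 and 11885 CPM in wildtype libraries. Among these 3 genes 0 passed edgeR's adjusted threshold, and DESeq2 and limma voom called 0. At an unadjusted p under 0.05 in edgeR, 1 was higher, *and1*, which held most of these reads. The genotypes overlapped for *and2* and *and3*. Of the 8 blastema marker IDs tested, 0 passed edgeR's adjusted threshold and DESeq2 and limma voom called 0. These IDs stand for 6 entries, with TNC and FN1 each matched by more than 1 ID. At an unadjusted p under 0.05 in edgeR, 4 were higher and 0 lower. Of these, *msx1a* had the largest log2 fold change, 0.84, and the lowest CPM. The others were *msx1b* at 0.26 and the TNC IDs at 0.38 and 0.23. Not among them were *msx3* at 0.28, the FN1 IDs at 0.07 and -0.03, and ALDH1A2 at -0.05. The sums of the blastema markers overlapped between the genotypes. FN1 (ENSDARG00000006526) held most of these sums, at 4712 and 6387 CPM in longfin and 4779 and 6515 CPM in wildtype libraries. The overlap of the sums is therefore largely that of this ID. Taken singly, *msx1a*, *msx1b* and the TNC IDs were higher in longfin without overlap, and *msx3*, ALDH1A2 and the FN1 IDs overlapped. The part of these cell types in the differences of the Ier, Gadd45 and Atf3 genes was not tested.

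The summed markers of other cells overlapped between the genotypes, except those of macrophages and neutrophils and of skeletal muscle. Both of these sums were higher in longfin, as were 20% of single genes tested without overlap. Of the macrophage and neutrophil markers, *mpeg1.1* and *mpx* were not matched. The 6 matched summed to 399 to 441 CPM in longfin and 392 to 394 CPM in wildtype libraries, with *lyz* at 0 reads in all 4. MMP9 held most of these reads, at 348 and 277 CPM in longfin and 309 and 274 CPM in wildtype libraries, which overlapped. Among the 5 tested, 0 passed edgeR's adjusted threshold. Their log2 fold changes were above 0 for 4, the largest at 0.12, and -0.28 for *ptprc*. The 3 distal niche markers matched, WNT5A, WNT5B and *dachc*, summed to 526 and 455 CPM in longfin and 474 and 421 CPM in wildtype libraries. None of them passed edgeR's adjusted threshold, and *dacha* and *dachb* were not matched. Basal epidermis markers summed to 9480 and 10410 CPM against 9604 and 12230 CPM, and osteoblast markers to 2148 and 2538 against 2295 and 3093 CPM. Endothelial markers lay between 44.2 and 60.2 CPM, red blood cell markers between 80.5 and 119.8 CPM and skeletal muscle markers between 29.0 and 33.5 CPM. Most of the muscle reads were of TNNT3 (ENSDARG00000068457), at 31.7 and 29.0 CPM in longfin and 28.4 and 27.8 CPM in wildtype libraries. Of the 2 muscle IDs tested, 0 passed edgeR's adjusted threshold. Melanocyte markers lay between 5.96 and 8.37 CPM and nerve and glia markers between 4.73 and 8.99 CPM, with *plp1b* at 0 reads in every library.

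The genes whose profile over the 4 libraries was nearest to the mean of *ier2a* and *ier2b* were found by the distance between centred log2 CPM values. Since the *ier2* copies were chosen on the genotype contrast, genes near them were bound to be higher in longfin. The *ier2* copies themselves stood 0.10 from their mean, and the median of the 13868 candidate genes was 1.77. The nearest was *trim35-27* (ENSDARG00000035009), at a distance of 0.31, with 2.97 and 2.72 CPM in longfin against 1.19 and 0.834 CPM in wildtype libraries. PAX6 (ENSDARG00000103379), a transcription factor gene of eye and brain development, followed at 0.41.

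The MAPK phosphatase genes DUSP2 (ENSDARG00000098108) and DUSP1 (ENSDARG00000100515) came next, at 0.42 and 0.45, and the AP-1 subunit gene JUNB (ENSDARG00000074378) at 0.52. DUSP2 had 92.4 and 65.9 CPM in longfin and 37.4 and 24.4 CPM in wildtype libraries, and DUSP1 had 332 and 225 against 132 and 81.9 CPM. Like *ier2b*, both were highest in longfin heterozygous replicate 1 and lowest in wildtype replicate 2. This likeness rests on 4 libraries and is a description.

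The pathways that feed these genes, or that they act on, were read from 6 lists, which share some genes. Of the 151 entries 146 were matched. Over all genes tested the median log2 fold change was 0.00, and 49.7% of genes were above 0.

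The targets of ATF4, the transcription factor of the integrated stress response that induces ATF3 in mammals, gave no call in the main test. Of 41 tested, 0 passed in either direction in edgeR's adjusted test, while at an unadjusted p under 0.05 there were 5 higher and 2 lower, against 3.66 and 5.82% of all genes. DESeq2 called 1 as higher and 0 as lower, where it called 0.419 and 1.17% of all genes, and limma voom called 0, against 0.098 and 0.283%. The list median was 0.02 and 22 of the 41 were above 0. *atf4a* (ENSDARG00000111939) itself had 314 ± 26.5 CPM (SD, n = 2) in longfin tips, against 303 ± 17.6 CPM in wildtype tips, and the glycyl-tRNA synthetase gene GARS1 246 ± 13.4 and 241 ± 16.1 CPM. The phosphatase regulator gene *ppp1r15a*, first described in mammals as GADD34 and named here after its value was seen, had a log2 fold change of 0.64 ± 0.16 (SE; edgeR adjusted p = 0.235) and is the gene that DESeq2 called.

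Of 31 tested targets of p53, which induces GADD45A in mammals, 0 passed in edgeR's adjusted test. At an unadjusted p under 0.05, 4 were higher and 2 lower, against 3.66 and 5.82% of all genes. DESeq2 called 1 as higher and 2 as lower, against 0.419 and 1.17%, and limma voom called 0. Those that DESeq2 called were the polo-like kinase gene PLK2 (ENSDARG00000090752), at a log2 fold change of 0.67, and PERP and the cyclin gene CCNG2, at -0.51 and -0.80. The median was 0.02. The gene of highest CPM, PERP (ENSDARG00000063572), a p53 target that is also a desmosome component of epidermis, had 1012 ± 78.4 CPM in longfin tips, against 1437 ± 220 CPM in wildtype tips. Its log2 fold change was -0.51 ± 0.12 (SE; edgeR adjusted p = 0.225). The cyclin gene CCNG1 (ENSDARG00000076667) had 396 ± 18.1 and 410.2 ± 5.63 CPM.

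The kinases of the p38 and JNK cascades, with proteins that bind GADD45, had 0 of 30 genes past edgeR's adjusted threshold, with 1 in each direction at an unadjusted p under 0.05 (3.66 and 5.82% of all genes) and 0 called by DESeq2 or limma voom. The higher one was the JNK gene MAPK10, at a log2 fold change of 1.13 with an SE of 0.39 (edgeR adjusted p = 0.431). It is named on account of its value and had 40 and 25 reads in longfin and 14 and 16 in wildtype libraries. The JNK genes with more reads had log2 fold changes of 0.21 and 0.00 for the MAPK8 IDs and -0.12 for MAPK9. The list median was 0.00. PCNA had 224 ± 8.66 CPM in longfin tips, against 232 ± 26.1 CPM in wildtype tips. The p38 substrate kinase gene MAPKAPK2 (ENSDARG00000002552) had 103 ± 2.55 and 119.9 ± 2.29 CPM.

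Among the dimer partners of ATF3 were the only genes of the 6 lists that edgeR called at an adjusted p under 0.05. Of 15 tested genes, 2 rose and 0 fell, against the background of 0.109 and 0.294%. At an unadjusted p under 0.05 in edgeR, 5 were higher and 2 lower, against 3.66 and 5.82% of all genes. The lower ones were JUND and CEBPD, at log2 fold changes of -0.68 and -0.63. JUNB (ENSDARG00000074378) had 660 and 649 CPM in longfin and 289 and 254 CPM in wildtype libraries, and JDP2 (ENSDARG00000020133), which encodes a Jun-binding repressor, had a log2 fold change of 1.13 ± 0.08 (SE). The adjusted p was 0.00545 for both in edgeR. Their difference was already known when the list was written. A second JUNB gene, ENSDARG00000104773, had 503 and 457 CPM against 85.2 and 155 CPM, with a log2 fold change of 2.00 ± 0.31 (SE; edgeR adjusted p = 0.180). It is given here on account of its value. The list median was 0.05, with 8 of 15 genes above 0. DESeq2 called 4 as higher, adding JUN and the second JUNB, and 1 as lower, JUND (log2 fold change -0.68). Of all genes it called 0.419% higher and 1.17% lower. Limma voom called 2 as higher and 0 as lower, against 0.098 and 0.283% of all genes. The calls were lost without either longfin library, where edgeR called no gene of the whole set higher.

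Among 9 MAPK phosphatases, which end p38, JNK and ERK signals, 0 passed in edgeR's adjusted test, with 2 in each direction at an unadjusted p under 0.05 (3.66 and 5.82% of all genes). DESeq2 called 1 as higher, DUSP2, against 0.419% of all genes, and limma voom called 0. DUSP6 (ENSDARG00000070914), that of highest CPM, had 479 ± 98.3 CPM in longfin tips, against 466 ± 48.8 CPM in wildtype tips. DUSP1 had a log2 fold change of 1.39 ± 0.32 (SE; edgeR adjusted p = 0.328). The 2 that were lower at an unadjusted p under 0.05 in edgeR, DUSP5 and DUSP8, had log2 fold changes of -0.75 and -0.55. Of 13 genes for PP2A subunits and other partners of Ier proteins, 0 passed in edgeR at an adjusted or an unadjusted p under 0.05, and DESeq2 and limma voom called 0. The PP2A scaffold genes with the symbol PPP2R1B had log2 fold changes of -0.12 for ENSDARG00000007791 and 0.02 for ENSDARG00000032430.

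**Figure D5:**
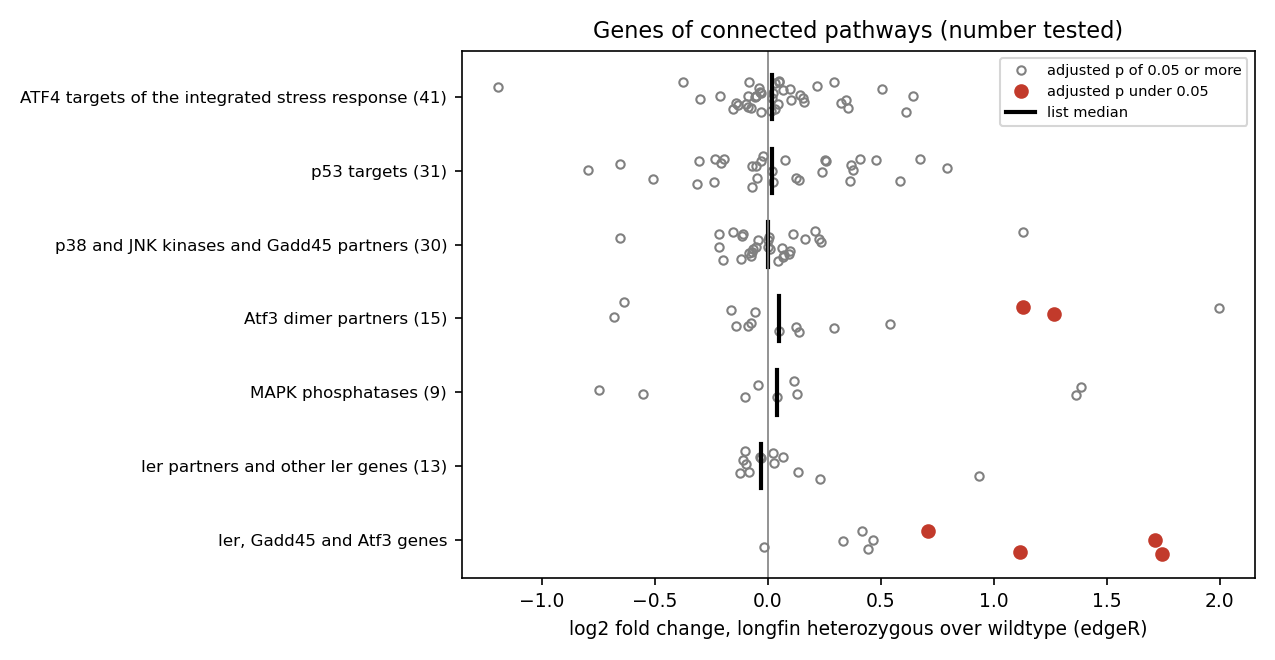
Log2 fold change of longfin heterozygous over wildtype for each tested gene of 6 connected lists and of the Ier, Gadd45 and Atf3 genes; filled points have an adjusted p under 0.05 and vertical bars are list medians. The medians of the 6 lists lie between -0.03 and 0.05, and the filled points outside the bottom line are JUNB (ENSDARG00000074378) and JDP2.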

How the data were processed

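Each of the 4 deposited files gives whole-number read counts per Ensembl ID, which the authors left unnormalized. Per the submitters' processing notes, TopHat2, HTSeq and the GRCz11 (danRer11) build were used. The sources used here give no versions, annotation release or strand setting. A row without a name and the 5 HTSeq classes stayed out of library sizes and tests. That row equals the sum of the gene rows. Of each library's reads, 28.7 to 41.9% were not uniquely aligned.

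Counts were fitted in R 4.3.3 with edgeR 4.0.16 (filterByExpr by genotype with minimum count 10 and total 15, TMM, glmQLFit with legacy off and robust on, two-sided glmQLFTest for genotype). P-values were Benjamini-Hochberg adjusted over 18366 genes, and the threshold was 0.05. Biological variation, as edgeR's common coefficient, was 0.134. SE is the absolute log2 fold change over the square root of F. Counts of the libraries of a genotype differed beyond sampling noise (wildtype 27.6 and longfin 19.0 in chi-square per degree of freedom). CPM means are ± SD over 2 libraries. The fits were also run on simulated data as a check of the code only, and no call given here rests on that check. DESeq2 1.42.0 and limma 3.58.1 (voom) were alternatives, with other scalings and filters, the replicate block and each library left out.

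The genes, lists and tests were chosen with earlier results of these data known. Named were all matched IDs, per list up to 4 genes past the threshold or else those 2 with the highest CPM, and the 5 nearest profiles among named genes of at least 1 CPM. CPM and read shares are not per length, since transcript lengths were not used here, so they do not rank the levels of different genes. Protein and promoter sequences were not analysed here.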

Additional observations from a re-analysis of the deposited data

How the results depend on the processing

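The log2 fold changes of *ier2a*, *ier2b*, IER5, IER5L, GADD45B (ENSDARG00000013576), ATF3 and the GADD45A IDs were above 0 under all 11 alternatives. That of GADD45G (ENSDARG00000019417) was 0.0071 with library size only, and lay between -0.20 and 0.16 with 1 library left out. Of the Ier, Gadd45 and Atf3 genes, 2 were called higher where a mean count of at least 50 was required, and 0 to 3 with 1 library left out. *ier2b* did not pass with no low count filter, with a mean count of at least 50 or in limma voom (edgeR or limma adjusted p 0.0511, 0.0546 and 0.0505), and ATF3 did not pass with a mean count of at least 50 (0.0557). Over all genes, 20 were called higher and 54 lower. These counts were 64 and 155 with library size only, 32 and 98 when no low counts were filtered out, and 77 and 214 in DESeq2, and they ranged from 0 to 25 and from 1 to 138 with 1 library left out. With library size only, 1 ATF4 target and 1 p53 target were called higher. DESeq2 called 1 ATF4 target, 1 p53 target, 4 dimer partners of ATF3 and 1 MAPK phosphatase as higher, and 2 p53 targets and 1 dimer partner as lower. With 1 library left out, 0 to 3 dimer partners were called higher, 0 to 1 lower, and 0 to 1 p53 targets lower. The cause of these shifts was not tested.

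The replicate numbers are not said to mark a shared clutch or day. Over 16537 genes, the differences between replicates 1 and 2 of the 2 genotypes correlated at 0.29. With the replicate block, 245 genes were called higher and 549 lower, and 6 of the Ier, Gadd45 and Atf3 genes were called higher. Under the block, 1 ATF4 target was called higher and 2 lower, 4 p53 targets higher and 3 lower, 1 gene of the p38 and JNK list lower, 3 dimer partners of ATF3 higher and 2 lower, and 2 MAPK phosphatases higher.

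With 1 library left out, the spread of the single remaining library is taken from the other genotype, so lost calls there say little about a gene. The 2 GADD45G IDs below the filter, with at most 13 reads in a library, allow no more than a counting interval.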
